A study of Mus musculus with 18 samples.

Results

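The UCSC identifiers uc007oxf.2 and uc007oxg.1 are neighbouring entries of a transcript numbering, and they are 2 of the 63244 identifiers in a read count table from mouse primary chondrocytes. They were chosen by their read counts in these same libraries, because both rise with interleukin-6 (IL-6) at very different levels, so their IL-6 responses are given below as a description and without a test. Both passed the filter on low counts that kept 13432 identifiers. That filter used all libraries, including those with IL-6, where uc007oxf.2 had most of its reads. In fits to the compared untreated groups alone, uc007oxf.2 did not pass it. No gene is paired with an identifier in the table, and the gene tables used here hold no UCSC identifiers, so neither row is given a gene name, a position or a role.

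Chondrocytes are the cells that make and maintain the matrix of cartilage. The cells were wild type, came from cartilage, and were used as a primary culture. Groups differed in oxygen, which was 21% (normoxia) or 1% (hypoxia), and in time and treatment, which were 0 h untreated, 12 h untreated or 12 h with IL-6 at 100 ng/ml. Each of the 6 groups had 3 libraries. The protocol text speaks of IL-6 or its receptor, while the treatment label reads IL-6. Defining markers of chondrocytes were not checked, because they need gene names.

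IL-6 is a cytokine that binds a receptor chain, which then joins the signalling subunit gp130 and activates the kinases of the JAK family and the transcription factor STAT3. In liver this pathway induces acute phase proteins, and in joints IL-6 is known as a mediator of inflammation. Cartilage has no blood vessels, so chondrocytes live at low oxygen in the body. In the UCSC numbering each identifier is a transcript, and consecutive identifiers often lie close together on a chromosome, though the numbering alone does not show that a given pair overlaps or belongs to a single gene.

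The libraries held between 3088280 and 10241162 assigned counts. A read was assigned only when it fell in a single identifier, and 40.6% to 50.3% of uniquely aligned reads were instead set aside as ambiguous, so an identifier that overlaps others is measured from part of its reads. The labels number the replicates without saying whether each was a separate animal or culture, so the spread behind each p-value may be technical. The hypoxia libraries of replicate 3, all in sequencing lane 8, stood apart from the rest. Their scores on the first principal component were 33.7 to 50.6, and those of the other 6 hypoxia libraries were 9.83 to 13.5. Hypoxia replicate 1 was in lane 3 throughout and replicate 2 in lane 6, while in normoxia replicate 3 was in lane 7 and replicates 1 and 2 were spread over lanes 2, 3 and 6.

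The more abundant row, uc007oxg.1, held from 380 to 1120 reads in every untreated library and from 6040 to 16269 in every library with IL-6. In normoxia at 12 h it had 751, 692 and 951 counts in untreated replicates 1, 2 and 3, and 8465, 15128 and 8299 counts with IL-6. As CPM, counts relative to library size after TMM scaling, these were 116, 76.2 and 99.6 untreated and 1556, 1915 and 844 with IL-6. The lowest treated library was thus far above the highest untreated library. In bulk RNA, more transcript per cell and more cells that hold the transcript cannot be told apart. The group means were 97.1 CPM ± 19.8 (SD, n = 3) and 1438 CPM ± 545 (SD, n = 3). The log2 fold change was 3.89 (SE 0.34). Ranked by read count among all identifiers of a library, uc007oxg.1 stood between places 1405 and 2142 in the untreated libraries and between places 61 and 141 with IL-6.

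In hypoxia at 12 h, uc007oxg.1 had 617, 656 and 380 counts in untreated replicates 1, 2 and 3 and 16269, 7630 and 6040 counts with IL-6. On the CPM scale these were 127, 111 and 101 untreated and 1532, 1265 and 824 with IL-6. Again no treated library came near an untreated one, and replicate 3 was the lowest treated library in both oxygen conditions. Means were 113 CPM ± 12.8 (SD, n = 3) and 1207 CPM ± 358 (SD, n = 3), and the log2 fold change was 3.42 (SE 0.33). The rank by read count moved from between 1293 and 1639 to between 85 and 138. With IL-6, uc007oxg.1 alone took up to 0.193% of all assigned reads of a library.

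The sparse row, uc007oxf.2, rested on 3 to 13 counts in each of the 12 untreated libraries. In normoxia at 12 h it had 4, 5 and 10 counts in untreated replicates 1, 2 and 3, and 79, 87 and 91 counts with IL-6. A count of 4 has a 95% Poisson interval from 1.09 to 10.2, and a count of 79 from 62.5 to 98.5, for counting error only. The CPM values were 0.616, 0.551 and 1.05 untreated and 14.5, 11.0 and 9.26 with IL-6. The treated and untreated libraries were far apart here too, and the log2 fold change was 3.91 (SE 0.59), close in size to that of uc007oxg.1 but with a wider error.

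In hypoxia at 12 h, uc007oxf.2 had 8, 3 and 10 counts in untreated replicates 1, 2 and 3 and 158, 40 and 81 counts with IL-6. These were 1.64, 0.507 and 2.66 CPM untreated and 14.9, 6.63 and 11.0 CPM with IL-6. The highest untreated library, replicate 3, lay below the lowest treated library, replicate 2, by a smaller margin than in normoxia. The log2 fold change was 2.84 (SE 0.57). The treated hypoxia libraries held a mean of 8043653 assigned counts and the untreated ones of 12 h 4861150. Among all tested identifiers, 3.81% were higher with IL-6 without overlap between the groups in normoxia and 5.61% in hypoxia. With a rise of at least 8-fold as well, the share was 0.0596% in normoxia and 0.112% in hypoxia. At 7.15-fold in hypoxia, uc007oxf.2 was not part of that last share. The median log2 fold change of all 13432 was 0.00 in normoxia and -0.01 in hypoxia. Since the pair was chosen for this response, these shares and medians are only a scale for it.

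**Figure D1:**
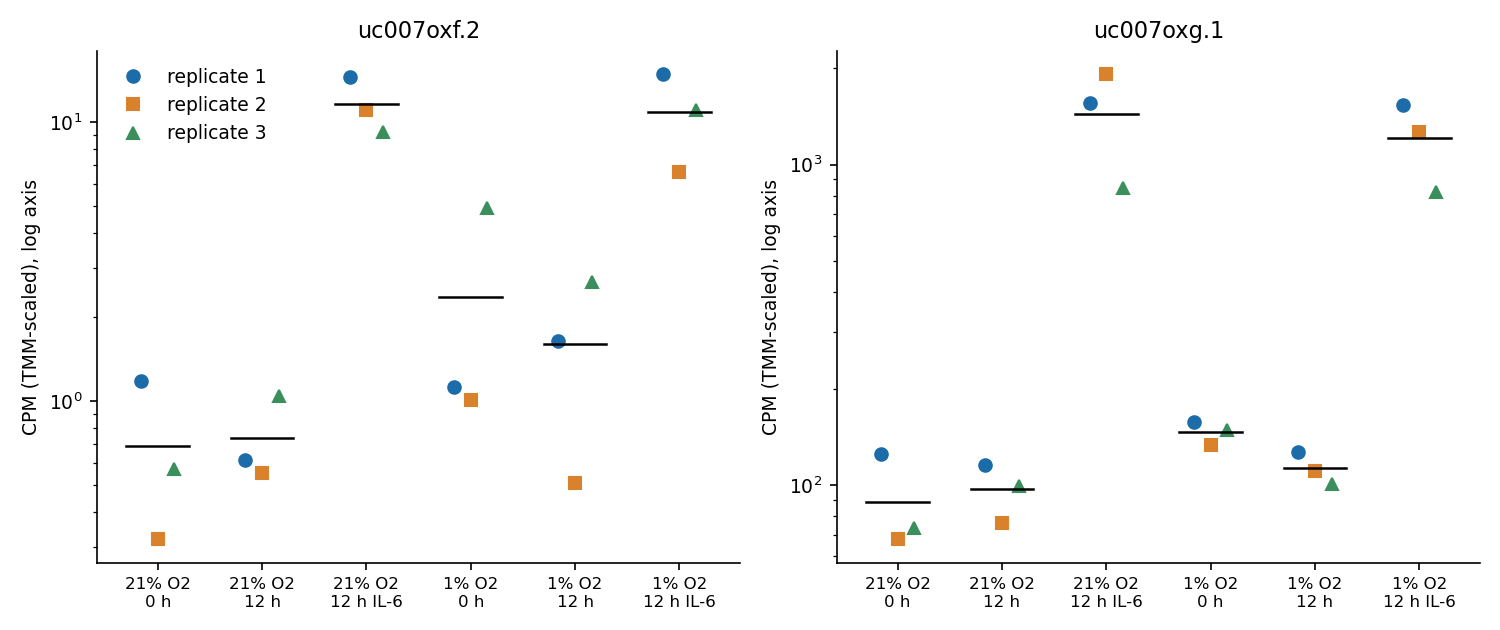
CPM after TMM scaling (log axis) of uc007oxf.2 (left) and uc007oxg.1 (right) in each of the 18 libraries, by oxygen and treatment. Points are libraries, marked by replicate number, and bars are the means of 3 libraries. In both panels the 6 libraries with IL-6 lie above all 12 untreated libraries, at 6.63 to 14.9 CPM for uc007oxf.2 and 824 to 1915 CPM for uc007oxg.1.

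The responses within same-numbered libraries gave the same picture on the log2 CPM scale. For uc007oxg.1 the rises were 3.75, 4.65 and 3.08 for replicates 1, 2 and 3 in normoxia and 3.60, 3.51 and 3.02 in hypoxia. For uc007oxf.2 they were 4.05, 3.76 and 2.85 in normoxia and 2.98, 3.13 and 1.94 in hypoxia. All but the normoxia pair of replicate 2 were sequenced within a single lane, so the rise was present within lanes 2, 3, 6, 7 and 8. Replicate 3 gave the smallest rise of each row in each oxygen condition.

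The choice of the pair did not use the difference of the response between oxygen conditions as such. It did use the IL-6 rises that enter this difference, so the interaction test is not independent of the choice. Both rows had a smaller fold change in hypoxia. The difference of log2 fold changes was -0.47 (SE 0.42) for uc007oxg.1, with a 95% interval from -1.36 to 0.42, and -1.08 (SE 0.83) for uc007oxf.2, with an interval from -2.81 to 0.66. Neither passed edgeR's quasi-likelihood interaction test (adjusted p = 1.00 for both, unadjusted p = 0.282 and 0.210). Leaving out 1 library gave -0.17 for uc007oxg.1 without normoxia with IL-6 replicate 2 and -0.74 without replicate 3 of that group. For uc007oxf.2 it gave -0.54 without untreated hypoxia replicate 3 of 12 h and -1.56 without replicate 2 of that group. All 12 such values of each row were below 0, but these fits share most of their libraries, so the signs are not separate evidence. The test called 0 of the 2, where 0% of all identifiers were called and 1.24% had an unadjusted p under 0.05. With a replicate block within each oxygen condition, 6 of the 13432 identifiers were called, and neither row was among them. DESeq2 also called 0 of the 2. The intervals hold no difference at all, and also a fold change in hypoxia as small as 0.389 times that in normoxia for uc007oxg.1 and 0.142 times for uc007oxf.2.

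The order of the 6 group means was the same for both rows, though the groups with IL-6 stand highest because the pair was chosen for that rise. From lowest to highest it ran normoxia at 0 h, normoxia at 12 h, hypoxia at 12 h, hypoxia at 0 h, hypoxia with IL-6 and normoxia with IL-6. For uc007oxf.2 the means were 0.690 ± 0.443, 0.738 ± 0.270, 1.60 ± 1.08, 2.36 ± 2.23, 10.9 ± 4.13 and 11.6 ± 2.68 CPM in that order (SD, n = 3 each). Its untreated groups all overlapped their neighbours in the order, as did its treated groups. The place of hypoxia at 0 h above 12 h depended on single libraries for this row. Its log2 fold change from 0 h to 12 h in hypoxia was -0.37, and 0.51 without hypoxia replicate 3 of 0 h. For uc007oxg.1 the means were 88.8 ± 31.6, 97.1 ± 19.8, 113 ± 12.8, 147 ± 12.5, 1207 ± 358 and 1438 ± 545 CPM (SD, n = 3 each). Here hypoxia at 0 h stood clear of hypoxia at 12 h, while both untreated normoxia groups overlapped each other, normoxia and hypoxia overlapped at 12 h, and the treated groups overlapped too.

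Before treatment, at 0 h, both rows were higher in hypoxia by the group mean, and neither difference passed the test. The counts of uc007oxg.1 were 636, 636 and 774 in normoxia replicates 1, 2 and 3 and 1120, 920 and 392 in hypoxia, from a smaller total in the last library. In CPM these were 125, 67.7 and 73.5 in normoxia and 158, 133 and 149 in hypoxia, so the groups did not overlap. Among all tested identifiers, 10.0% were higher in hypoxia without overlap in this comparison. The log2 fold change was 0.73 (SE 0.30, 95% interval 0.09 to 1.36), with an adjusted p of 0.215 and an unadjusted p of 0.0278 by edgeR. For uc007oxf.2 the counts were 6, 3 and 6 in normoxia and 8, 7 and 13 in hypoxia, or 1.18, 0.319 and 0.570 CPM against 1.13, 1.01 and 4.93 CPM. The groups overlapped, and hypoxia replicate 3 alone stood well above the rest. The log2 fold change was 1.62 (SE 0.69), with an adjusted p of 0.227 and an unadjusted p of 0.0307 by edgeR, and it was 0.71 without that library. By edgeR 0 of the 2 rows were called, against 4.95% of all identifiers, and 2 of the 2 had an unadjusted p under 0.05, against 16.7% of all. DESeq2 called 0 of the 2. Within lane 3, which held 1 hypoxia and 2 normoxia libraries of 0 h, the log2 differences were 0.78 for uc007oxg.1 and 0.59 for uc007oxf.2. Between the replicate 1 libraries alone, both in that lane, they were 0.33 and -0.05.

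At 12 h without treatment the oxygen differences were smaller. The log2 fold change of hypoxia against normoxia was 0.22 (SE 0.30, 95% interval -0.42 to 0.85, edgeR adjusted p = 0.746) for uc007oxg.1. It was 1.00 (SE 0.68, 95% interval -0.44 to 2.44, edgeR adjusted p = 0.458) for uc007oxf.2, and 0.46 without hypoxia replicate 3. Groups overlapped for both rows, and 0 of the 2 were called by edgeR or by DESeq2, with 0 of the 2 at an unadjusted p under 0.05, where edgeR called 5.52% of all identifiers and put 19.0% under that p. In lane 3, with only hypoxia replicate 1 and normoxia replicate 2, the log2 differences were 0.73 for uc007oxg.1 and 1.21 for uc007oxf.2. With lane as a term in the edgeR fit to all libraries, the log2 fold changes were 0.19 and 0.77.

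With IL-6 present, the means of both rows were slightly lower in hypoxia. The log2 fold change was -0.25 (SE 0.30, 95% interval -0.88 to 0.37, edgeR adjusted p = 0.833) for uc007oxg.1 and -0.08 (SE 0.47, 95% interval -1.06 to 0.91, edgeR adjusted p = 0.982) for uc007oxf.2. In this comparison 0 of the 2 were called by edgeR or by DESeq2, and 0 of the 2 had an unadjusted p under 0.05, where edgeR called 2.90% of all identifiers and put 12.9% under that p. The signs turned when single libraries were left out. In lane 6, with 1 library of each oxygen condition, the log2 differences were -0.60 for uc007oxg.1 and -0.71 for uc007oxf.2.

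Between 0 h and 12 h without treatment neither row passed the test, while uc007oxg.1 was lower at 12 h in every hypoxia library. In normoxia the log2 fold change from 0 h to 12 h was 0.13 (SE 0.30) for uc007oxg.1 and 0.25 (SE 0.71) for uc007oxf.2 (edgeR adjusted p = 1.00 for both). In hypoxia it was -0.38 (SE 0.30) for uc007oxg.1 and -0.37 (SE 0.66) for uc007oxf.2 (edgeR adjusted p = 1.00 for both). The hypoxia values of uc007oxg.1 at 12 h, 101 to 127 CPM, all lay below those at 0 h, 133 to 158 CPM, and the differences within replicates 1, 2 and 3 were -0.32, -0.26 and -0.55 on the log2 CPM scale. Among all identifiers 4.72% were lower at 12 h without overlap there. In both time comparisons 0 of the 2 were called by edgeR or by DESeq2 and 0 of the 2 had an unadjusted p under 0.05. Among all identifiers edgeR called 0.00744% in normoxia and 0% in hypoxia and put 0.804% and 4.65% under that p. With a replicate block within each oxygen condition, 19 of the 13432 identifiers were called in normoxia and 254 in hypoxia, and neither row was among them. The 95% intervals for uc007oxg.1 were -0.50 to 0.77 in normoxia and -1.01 to 0.26 in hypoxia.

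**Figure D2:**
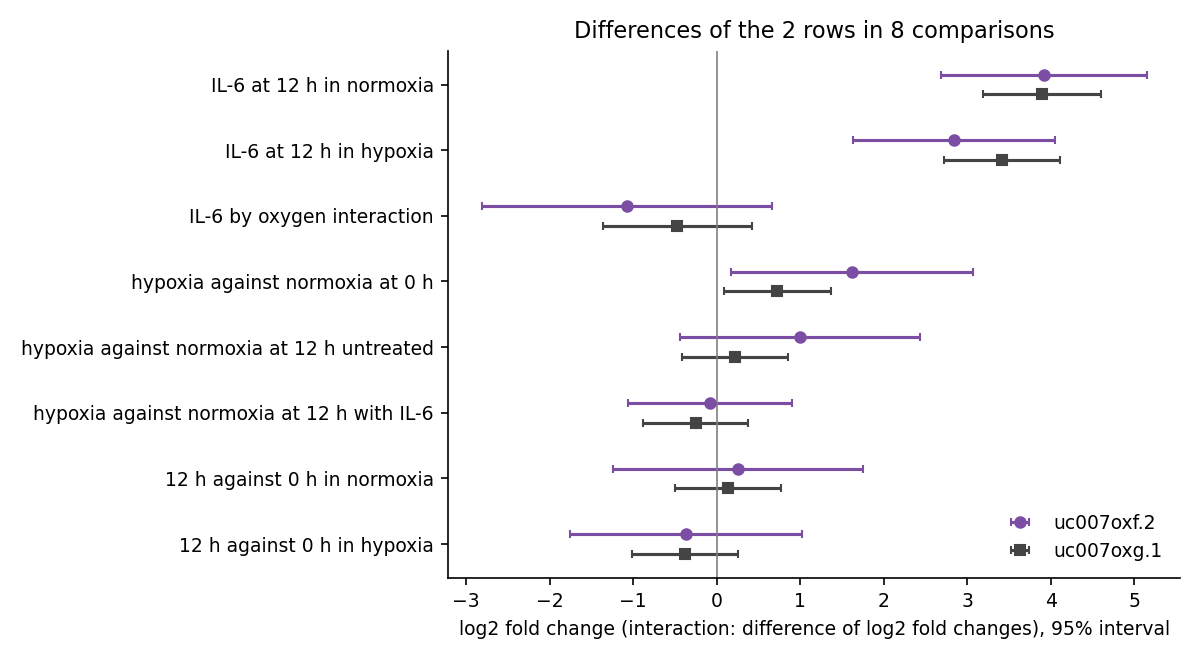
Log2 fold changes of uc007oxf.2 and uc007oxg.1 in 8 comparisons, with 95% intervals from the edgeR fit to all 18 libraries; the interaction is a difference of log2 fold changes. The IL-6 comparisons, for which the pair was chosen, lie between 2.84 and 3.91, and the other values lie between -1.08 and 1.62 with wider intervals for uc007oxf.2.

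The relation of the rows to each other within a library needs no scaling between libraries. Over the 12 untreated libraries uc007oxf.2 summed to 83 counts and uc007oxg.1 to 8525, and over the 6 libraries with IL-6 they summed to 536 and 61831. These are ratios of reads. Transcript lengths and overlaps were not used here, so they do not give a ratio of RNA molecules. In normoxia, uc007oxf.2 made up 0.787% of the reads of both rows at 12 h untreated (95% exact binomial interval 0.475% to 1.23%) and 0.799% with IL-6 (0.705% to 0.903%), from summed counts. In hypoxia the shares were 1.25% (0.778% to 1.91%) untreated and 0.923% (0.819% to 1.04%) with IL-6. The intervals cover counting error only. On the log2 scale the ratio of uc007oxg.1 to uc007oxf.2 changed with IL-6 by -0.06 in normoxia and by 0.51 in hypoxia, by the difference of group means. Within replicates 1, 2 and 3 the changes were -0.65, 0.46 and 0.0014 in normoxia and 0.50, 0.0064 and 1.03 in hypoxia. These values belong to the response for which the pair was chosen and are given without a test.

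Among the treated libraries, where counts were highest, the share of uc007oxf.2 varied from library to library. In normoxia with IL-6 it was 0.925% (0.733% to 1.15%) in replicate 1, 0.572% (0.458% to 0.705%) in replicate 2 and 1.08% (0.874% to 1.33%) in replicate 3. In hypoxia with IL-6 it was 0.962% (0.818% to 1.12%), 0.522% (0.373% to 0.709%) and 1.32% (1.05% to 1.64%) in the same order. Replicate 2 had the lowest share and replicate 3 the highest in both oxygen conditions. The intervals cover counting error alone, which separate libraries generally exceed in these data, so they do not test a difference between libraries. Both replicate 2 libraries with IL-6 were in lane 6, so replicate number and lane cannot be told apart there. Multiply aligned reads per assigned read were fewest in replicate 3, at 1.06 and 0.764 in the normoxia and hypoxia libraries with IL-6. They were 2.81 and 2.34 in replicate 1 and 2.57 and 3.08 in replicate 2. Ambiguous reads were 46.7% and 43.3% of uniquely aligned reads in replicate 3, against 45.1% and 47.2% in replicate 1 and 49.8% and 47.7% in replicate 2. The part of these read classes in the shares was not tested.

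In untreated hypoxia, replicate 3 again had the highest share of uc007oxf.2, at 3.21% (1.72% to 5.43%) at 0 h and 2.56% (1.24% to 4.66%) at 12 h. The other untreated libraries ran from 0.455% to 1.28%. On the log2 scale the ratio of uc007oxg.1 to uc007oxf.2 was lower in hypoxia than in normoxia by group mean in all 3 states, by -0.72 at 0 h, -0.65 at 12 h untreated and -0.07 with IL-6. The mean difference over the 3 states was -0.48 (two-sided exact permutation p = 0.217 over 8000 assignments within states, n = 9 libraries a side, where the smallest possible p is 0.00025). Libraries of a number deviate together within an oxygen condition, which this test does not take into account. Without the hypoxia libraries of replicate 3 the mean difference was 0.04, so its direction rests on those 3 libraries.

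**Figure D3:**
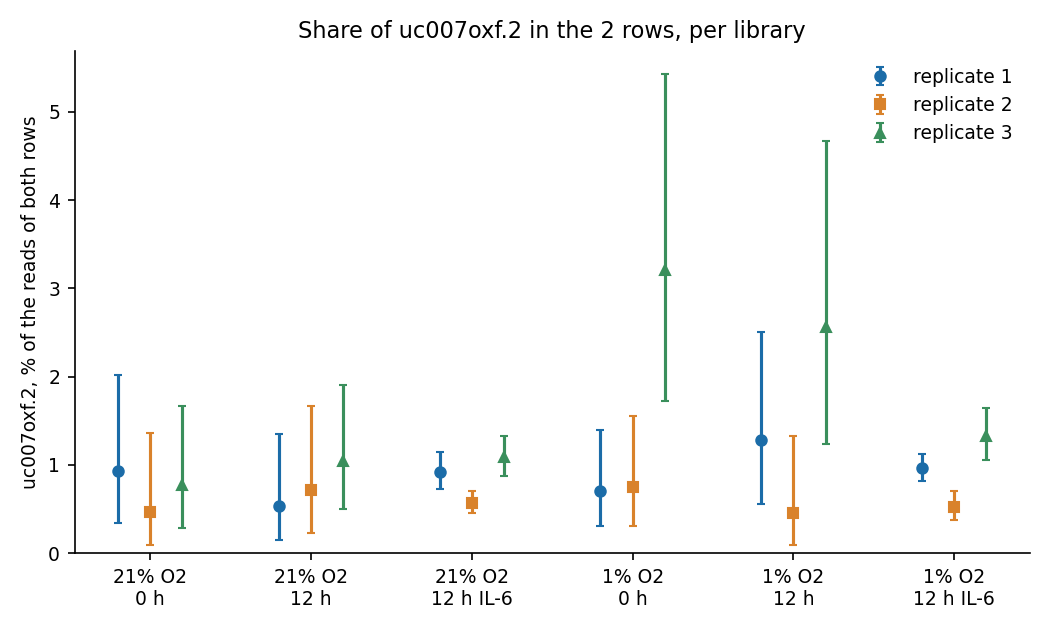
Reads of uc007oxf.2 as a percentage of the reads of both rows, per library, with 95% exact binomial intervals for counting error. With IL-6, replicate 2 lies lowest in both oxygen conditions, at 0.572% and 0.522%, and the untreated hypoxia libraries of replicate 3 lie highest of all, at 3.21% and 2.56%.

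Over the 12 untreated libraries the log2 CPM values had a Pearson r of 0.61 (permutation p = 0.0234) and a Spearman rho of 0.64 (permutation p = 0.0300). Adjusted over the 4 sets of libraries examined, the values were 0.0936 and 0.0667, and r without the 2 libraries farthest from the median of uc007oxg.1 was 0.44. The 12 libraries span 4 groups and same-numbered pairs, which this permutation does not take into account. On deviations from the group means r was 0.33 (permutation p = 0.300). In the 6 untreated normoxia libraries r was 0.79 and rho 0.89 (exact permutation p = 0.0833 and 0.0333, adjusted p = 0.167 and 0.0667). In the 6 untreated hypoxia libraries r was 0.17 and rho 0.09 (exact permutation p = 0.747 and 0.919, adjusted p = 0.747 and 0.919). In the 6 libraries with IL-6 r was 0.35 and rho 0.26 (exact permutation p = 0.497 and 0.658, adjusted p = 0.663 and 0.878). Without the 2 libraries farthest from the median, r was 0.97 in untreated normoxia, 0.91 in untreated hypoxia and 0.52 with IL-6, over 4 libraries each. The difference in r between oxygen conditions was not tested. As a scale, the 4697 pairs of consecutive identifiers in which both passed the filter had a median r of 0.19 over the same 12 libraries, with quartiles at -0.17 and 0.49. Libraries share their depth and lane across all such pairs.

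**Figure D4:**
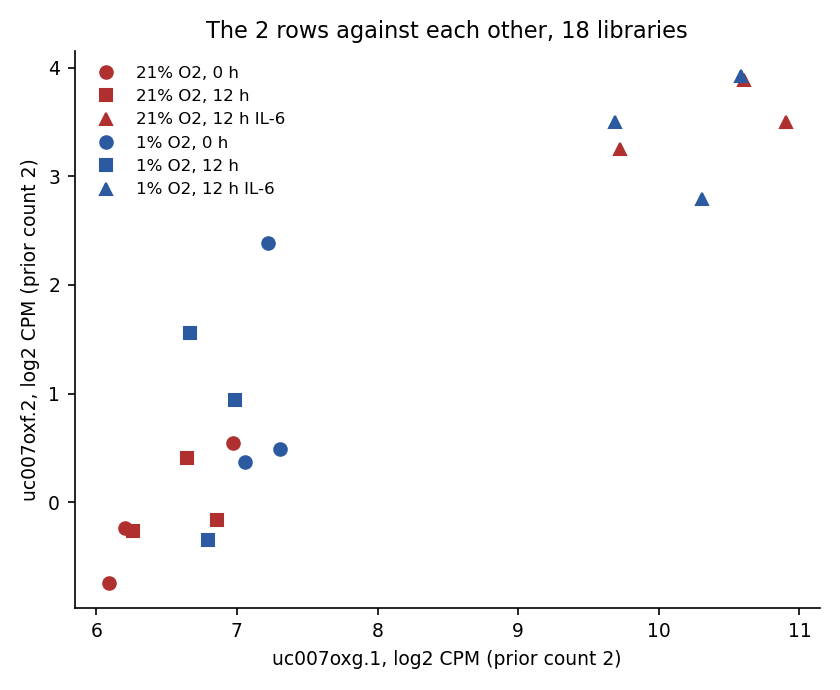
Log2 CPM (prior count 2) of uc007oxf.2 against uc007oxg.1 in the 18 libraries, coloured by oxygen and shaped by time and treatment. The libraries with IL-6 form a group of their own at the upper right, so a single correlation over all 18 describes the gap between the groups; over the 12 untreated libraries r was 0.61.

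Within 5 places of the pair in the numbering, the table has 9 further identifiers. Of these, 4 had at most 1 read over all 18 libraries and 4 passed the filter. Among the 4 was uc007oxd.1, singled out after its values were seen, which lies 2 places before uc007oxf.2. It had 5, 2 and 5 counts untreated and 27, 19 and 30 with IL-6 in normoxia replicates 1, 2 and 3 at 12 h. In hypoxia it had 5, 3 and 0 counts untreated and 50, 18 and 52 with IL-6. Every treated library was thus above every untreated library of 12 h, with log2 fold changes of 2.77 in normoxia and 3.15 in hypoxia, given without a test. Among all tested identifiers, 3.81% were higher with IL-6 without overlap in normoxia and 5.61% in hypoxia. No untreated library held more than 5 counts of uc007oxd.1, so it passed the filter through its libraries with IL-6. The entry between it and uc007oxf.2, uc007oxe.2, had no read in any library, which allows up to 3 counts in each. The other 3 neighbours that passed the filter lay on the far side of uc007oxg.1 and had log2 fold changes with IL-6 between -0.43 and 0.35 in normoxia and between -0.28 and 0.25 in hypoxia. The rows that were several-fold higher with IL-6 thus numbered 3 and lay within 4 consecutive places of the numbering. All 3 were picked out by this rise, so their nearness is a description only. Whether these 3 rows share reads, an exon or a gene was not tested.

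**Figure D5:**
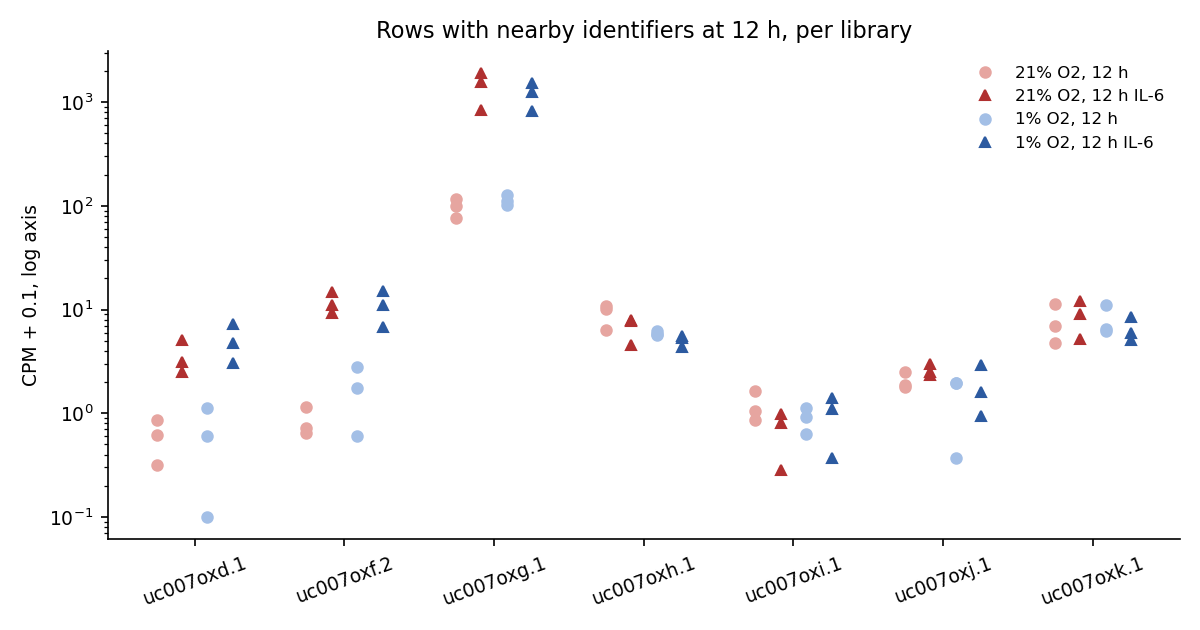
CPM + 0.1 (log axis) at 12 h of the identifiers within 5 places of the pair that had more than 1 read in all; each point is a library, with circles for untreated and triangles for IL-6. The treated libraries lie above the untreated ones for uc007oxd.1, uc007oxf.2 and uc007oxg.1, and the groups lie close together for the 4 later identifiers.

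Other identifiers followed the pair at least as closely as its members followed each other over all 18 libraries, as a description in which the gap between treated and untreated libraries dominates. The pattern most like uc007oxg.1 in log2 CPM was that of uc007moi.2 (Pearson r = 0.96, 18 libraries), followed by uc008ybg.2 (r = 0.96). The pattern most like uc007oxf.2 was that of uc008gwu.2 (r = 0.94), followed by uc009fnk.2 (r = 0.94). The pair had an r of 0.92 with each other, which placed uc007oxf.2 4th among the identifiers most like uc007oxg.1 and uc007oxg.1 6th among those most like uc007oxf.2. In normoxia at 12 h, uc007moi.2 stood at 22.2 CPM ± 5.81 (SD, n = 3) untreated and 187 CPM ± 23.2 (SD, n = 3) with IL-6. In the same groups uc008gwu.2 stood at 4.89 CPM ± 1.95 (SD, n = 3) and 26.8 CPM ± 1.22 (SD, n = 3).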

How the data were processed

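Ribosomal RNA was removed and 50 bp single-end reads were sequenced, per the labels' protocols. The submitters' processing notes name the mm10 build, TopHat2, HTSeq and DESeq2; their versions are not given in the sources used. The authors deposited raw read counts per UCSC identifier with no normalization; the 5 HTSeq summary rows were left out of totals and tests. Counts were filtered with filterByExpr, scaled with TMM and fitted with edgeR 4.0.16 (R 4.3.3, robust quasi-likelihood F-test, 1 coefficient per group, all 18 libraries), with Benjamini-Hochberg adjustment over 13432 identifiers and a threshold of 0.05. SE was taken as the size of the log2 fold change over the square root of F. Ratios used a pseudocount of 0.5; correlations used log2 CPM with a prior count of 2 and 100000 resamples, or all permutations for 6 libraries (SciPy 1.17.1). Identifiers were named by likeness: the 2 with the highest r to each member over 18 libraries. The pair, its neighbours and the tests were chosen with earlier results of these data known. The fits were tested on simulated data. Replicate libraries differed beyond sampling noise (chi-square per degree of freedom at least 15.3), so none was merged. Same-numbered libraries deviated together within an oxygen condition (correlations 0.42 to 0.69 in normoxia, 0.23 to 0.63 in hypoxia). The numbers, given in the labels, were used as pairs only for differences within replicates and in the alternative fits with a replicate block. The main fit had no replicate term, so its SEs, intervals and p-values leave this pairing out. Alternatives were DESeq2 1.42.0, RLE scaling, no filter, fewer groups, replicate blocks, lane and libraries left out. No genome sequence, coordinate or transcript length was used.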

Additional observations from a re-analysis of the deposited data

How the results depend on the processing

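Of 245 values recomputed under other settings, 233 kept their direction and their side of the threshold or moved by less than the spread between replicates, and 10 turned in sign. The IL-6 log2 fold changes ranged from 3.58 to 4.15 (normoxia) and from 3.19 to 3.61 (hypoxia) for uc007oxg.1 over all settings, and from 3.72 to 4.27 and from 2.34 to 3.39 for uc007oxf.2. With a replicate block within oxygen the values for uc007oxf.2 were 3.87 (SE 0.37) and 2.85 (SE 0.37). The SE of its interaction was 0.61, against 0.83 in the main fit, and that of uc007oxg.1 stayed at 0.42. For the time and interaction tests no call of either member changed. Of all 13432 identifiers this block called 19 for time in normoxia, 254 for time in hypoxia and 6 for the interaction. The main fit called 1, 0 and 0. A replicate block across oxygen conditions called uc007oxg.1 higher in hypoxia at 0 h (log2 fold change 0.76, edgeR adjusted p = 0.0425). Under the other settings of this comparison the adjusted p by edgeR or DESeq2 was 0.106 to 0.555. The block changed no other call of either member. Of all 13432 identifiers it called 1473 at 0 h, against 665 in the main fit. Across oxygen conditions, same-numbered libraries correlated from -0.13 to 0.50 and differently numbered ones from -0.60 to 0.32. Whether a number stands for the same animal or culture in both oxygen conditions was not tested. The call at 0 h was the only call of either member among the tested values, for 87 alternative values of uc007oxg.1 and 83 of uc007oxf.2.

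Leaving out single libraries turned small differences. For 12 h against 0 h in normoxia the values ran from -0.11 to 0.71 for uc007oxf.2 (-0.11 without replicate 2 of 0 h, and -0.11 without replicate 3 of 12 h) and from -0.027 to 0.46 for uc007oxg.1 (-0.027 without replicate 2 of 0 h, -0.0099 without replicate 1 of 12 h). In hypoxia uc007oxf.2 ran from -0.89 to 0.51 (0.51 without replicate 3 of 0 h, 0.13 without replicate 2 of 12 h). For hypoxia against normoxia with IL-6, uc007oxf.2 ran from -0.41 to 0.19 (0.11 without normoxia replicate 1, 0.19 without hypoxia replicate 2), and uc007oxg.1 from -0.55 to 0.060 (0.060 without normoxia replicate 2). The log2 ratio of the rows between oxygen conditions was 0.04 (exact permutation p = 0.870) without the hypoxia libraries of replicate 3. Without those libraries the untreated correlation was r = 0.75 (unadjusted permutation p = 0.0154). Prior counts of 0.5 and 5 gave r of 0.63 and 0.59 over all untreated libraries. On deviations from group means the untreated correlation fell to r = 0.33 (permutation p = 0.300). The cause was not tested. In fits to the compared groups alone, uc007oxf.2 failed the filter in the 4 untreated comparisons. Counts of 3 to 13 in untreated libraries limit every statement on uc007oxf.2.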
